A study of Mus musculus with 2 samples.

Results

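Ly6a, Ly6c1, Ly6c2, Ly6e and Gpihbp1 were followed as 5 members of the Ly6 family, out of 31054 genes counted in single cells from mouse liver. They were chosen by name, as genes of this family whose counts had already been seen to differ between the libraries, so their ratios between the libraries within a cell type are a description and carry no test. The 2 libraries held hepatic stellate cells isolated on a Nycodenz gradient from male mice given CCl4 for 4 weeks. Both genotypes also received tamoxifen and diphtheria toxin. The p16-LRTD mice carried p16-CreERT2, in which the p16 promoter drives a tamoxifen-inducible Cre, together with R26-CAG-LSL-RSR-tdTomato-2A-DTR, a cassette for tdTomato and the toxin receptor behind one stop for Cre and another for Dre. The p16-Alb-LRTD mice carried Alb-DreERT2 as well, a Dre driven by the albumin promoter of hepatocytes, so that p16-expressing hepatocytes could take the toxin. There was 1 library per genotype, and neither the number of mice in it nor their age is stated. The spread between mice is therefore unknown, and genotype cannot be told apart from mouse, isolation or library preparation.

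Ly6 proteins are small cell surface proteins with a compact, disulphide-bonded, finger-like fold, held in the membrane by a lipid anchor. Ly6a encodes Sca-1, an antigen of blood stem cells and of mesenchymal progenitors that is induced by interferons. Ly6e encodes a broadly expressed relative that is also induced by interferons. Ly6c1 and Ly6c2 encode near-identical antigens, the first known from endothelium and T cells and the second from monocytes and memory T cells. Gpihbp1 encodes the protein of capillary endothelium that binds lipoprotein lipase and carries it to the vessel lumen, where triglyceride-rich lipoproteins are hydrolysed.

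All members lie on chromosome 15 (GRCm38 coordinates, GENCODE vM21 annotation) within 644 kb. In order along the chromosome, Ly6e spans 74955051 to 74959905 on the plus strand, Ly6a 74994877 to 74998031, Ly6c1 75044018 to 75048830 and Ly6c2 75108158 to 75111970 on the minus strand, and Gpihbp1 75596628 to 75599481 on the plus strand. Each is protein coding and none overlaps another annotated gene. Reads came from the 3′ ends of transcripts. Of the windows of 90 bases in the last 400 bases, 13.1% of those of Ly6c1 also occur in Ly6c2, 17.3% of those of Ly6c2 occur in Ly6c1 and 0.526% of those of Ly6c1 occur in Ly6a, whereas Ly6a, Ly6e and Gpihbp1 share none there with another member. Reads from shared stretches of Ly6c1 and Ly6c2 could not be assigned to one of the pair, so both counts are uncertain.

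Promoter sequence in RefSeq was at hand for 2 members, Ly6c1 and Ly6c2. They are shown because these neighbouring genes differed in where most of their UMIs lay in the data below, Ly6c1 in endothelial and fibroblast-gated cells and Ly6c2 in lymphocyte-gated cells, most of them in barcodes that also passed a monocyte gate. Each runs from 250 bases before to 50 bases after the first listed start site, 5′ to 3′ on the minus strand of GRCm38.p6, at chr15:75048788-75049087 for Ly6c1 and chr15:75111922-75112221 for Ly6c2, and capitals mark bases within the aligned stretch that differ or have no partner in the other.
Ly6c1: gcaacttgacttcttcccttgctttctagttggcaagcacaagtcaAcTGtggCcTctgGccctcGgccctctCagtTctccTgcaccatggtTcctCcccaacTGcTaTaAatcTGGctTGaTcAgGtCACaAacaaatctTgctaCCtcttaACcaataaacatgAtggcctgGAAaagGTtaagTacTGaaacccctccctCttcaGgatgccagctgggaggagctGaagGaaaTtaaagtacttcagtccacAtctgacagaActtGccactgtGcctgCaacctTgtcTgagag
Ly6c2: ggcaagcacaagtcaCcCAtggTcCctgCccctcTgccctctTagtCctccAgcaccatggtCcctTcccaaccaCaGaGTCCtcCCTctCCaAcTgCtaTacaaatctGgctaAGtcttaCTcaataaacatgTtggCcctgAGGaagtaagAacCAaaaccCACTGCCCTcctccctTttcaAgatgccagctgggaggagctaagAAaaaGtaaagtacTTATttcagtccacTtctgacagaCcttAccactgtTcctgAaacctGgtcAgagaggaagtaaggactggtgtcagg
Of 260 aligned bases, 214 were identical (82.3%). Neither window held a match, on either strand, to GAAANNGAA, letters at the core of the element bound by interferon-activated factors, which 8.56% of 32851 promoters of this length held, or to TTCNNNGAA, the core of a STAT site, which 8.30% held.

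The libraries held 11149 (p16-LRTD) and 8806 (p16-Alb-LRTD) barcodes with 193746596 and 162219167 unique molecular identifiers (UMIs, 1 per captured RNA molecule), and 9004 and 7416 barcodes passed the filter. Stellate cells were taken as barcodes with at least 15 UMIs of Lrat, Ecm1, Hgf and Reln per 10000, endothelial cells with at least 8 of Kdr, Stab2 and Ptprb, and Kupffer cells, the resident macrophages of the liver, with at least 8 of Clec4f, Cd5l, Vsig4 and Csf1r. Barcodes that passed more than 1 of these gates were left out. This gave 7852 and 6621 stellate cells (median 17024.5 and 18136 UMIs), 430 and 283 endothelial cells (11781 and 11992 UMIs) and 283 and 178 Kupffer cells (19514 and 25101.5 UMIs). Markers that did not enter a gate were also highest in their own set. The 5 such stellate markers summed to 23988 and 26884 CPM (UMIs of the gene per 1000000 summed UMIs) in stellate cells against at most 479 CPM in the other 2 sets. The 9 endothelial markers summed to 9277 and 8257 CPM in endothelial cells against at most 765 CPM, and the 5 Kupffer markers to 7672 and 10034 CPM in Kupffer cells against at most 62.1 CPM. The libraries shared 95 barcode sequences. Leaving them out moved the log2 ratio of Ly6a in Kupffer cells from 0.89 to 0.80. Intervals below are 95% intervals and cover counting error only, and because UMIs were counted at one end of each transcript, levels need no scaling by length.

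Among members with at least 5 CPM in a cell type, Ly6a had the largest difference, and it was higher in p16-Alb-LRTD in stellate, endothelial and Kupffer cells. In stellate cells its level was 74.5 CPM (73.1 to 75.9, 10625 UMIs) in p16-LRTD against 414 CPM (411 to 418, 51831 UMIs) in p16-Alb-LRTD. The intervals lay far apart, with a log2 ratio of 2.48 (2.45 to 2.51), or 5.56-fold, and only 3 of 10179 genes with at least 5 CPM on average had a larger ratio. In endothelial cells the level was already 335 CPM (321 to 350) in p16-LRTD and was 591 CPM (567 to 615) in p16-Alb-LRTD, 1.76-fold (log2 ratio 0.82, 0.73 to 0.90). In cells with 10000 to 30000 UMIs the endothelial ratio was just past 2-fold, with 309.6 CPM against 620.4 CPM. In Kupffer cells the levels were 98.6 CPM (90.8 to 107) and 183 CPM (170 to 196), 1.86-fold (log2 ratio 0.89, 0.74 to 1.05). The order of the cell types therefore differed between the libraries: in p16-LRTD the stellate level was the lowest and in p16-Alb-LRTD it was second to the endothelial level, with no overlap of the intervals in either. Whether the ratio differs between cell types was not tested.

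**Figure D1:**
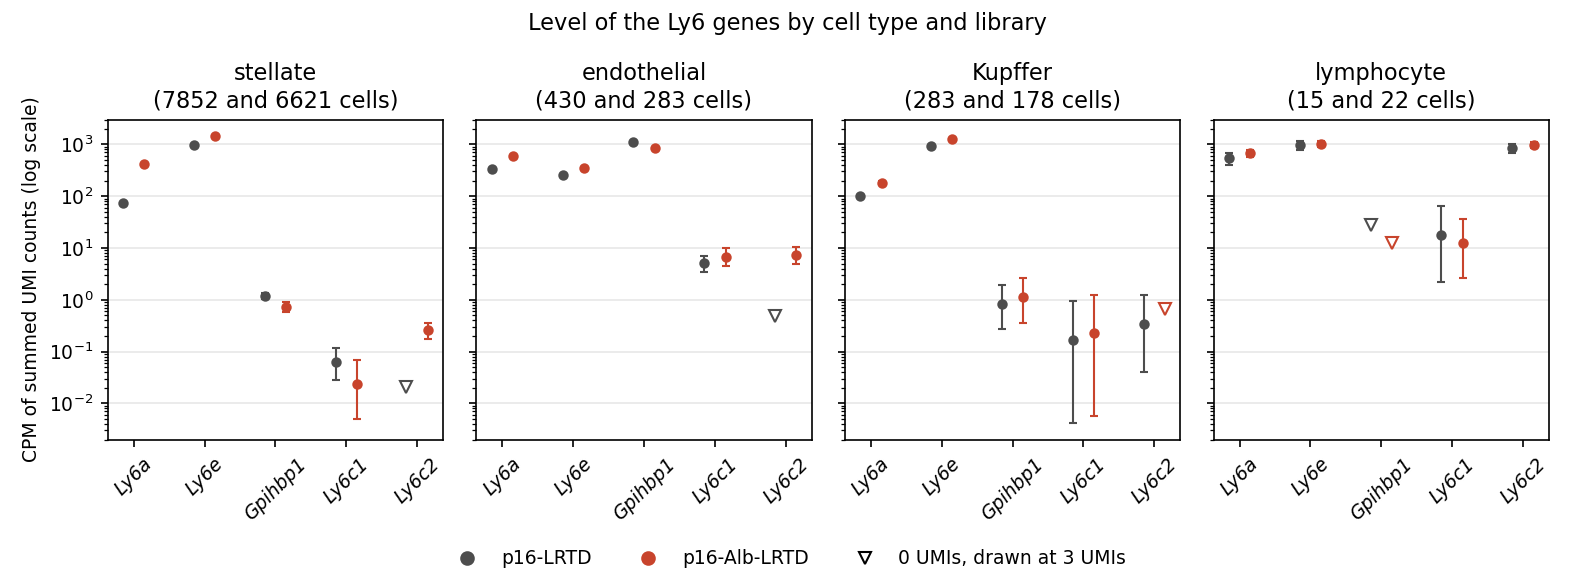
CPM of summed UMI counts (log scale) of the 5 members in stellate, endothelial, Kupffer and lymphocyte-gated cells of both libraries, with 95% Poisson intervals. Triangles mark genes with 0 UMIs, drawn at the level of 3 UMIs. Ly6a in stellate cells stands at 74.5 CPM in p16-LRTD against 414 CPM in p16-Alb-LRTD, Gpihbp1 is highest in endothelial cells and Ly6c2 in lymphocyte-gated cells of the sets drawn.

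In p16-Alb-LRTD most stellate cells held Ly6a. With each cell thinned to 5000 UMIs, the share of stellate cells that held a Ly6a UMI was 23.4% (22.4 to 24.3) for p16-LRTD against 70.3% (69.2 to 71.4) for p16-Alb-LRTD, and without thinning 44.1% and 89.3% did. No single stellate cell held more than 0.414% of the stellate Ly6a UMIs of its library. The median stellate cell had 0 Ly6a UMIs per 10000 in p16-LRTD and 3.09 in p16-Alb-LRTD, and the 90th percentile was 2.47 and 9.60. The median cell of p16-Alb-LRTD thus lay above the 90th percentile of p16-LRTD. After the same thinning, 57.4% (52.5 to 62.2) of endothelial cells held a Ly6a UMI in p16-LRTD, against 80.6% (75.5 to 85.0) in p16-Alb-LRTD. The Kupffer cell shares, 28.4% (23.2 to 34.1) against 38.4% (31.2 to 46.0), had overlapping intervals. In stellate cells 50% of the Ly6a UMIs lay in 8.35% of cells of p16-LRTD and in 19.2% of p16-Alb-LRTD, and in Kupffer cells in 6.71% and 10.1%.

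**Figure D2:**
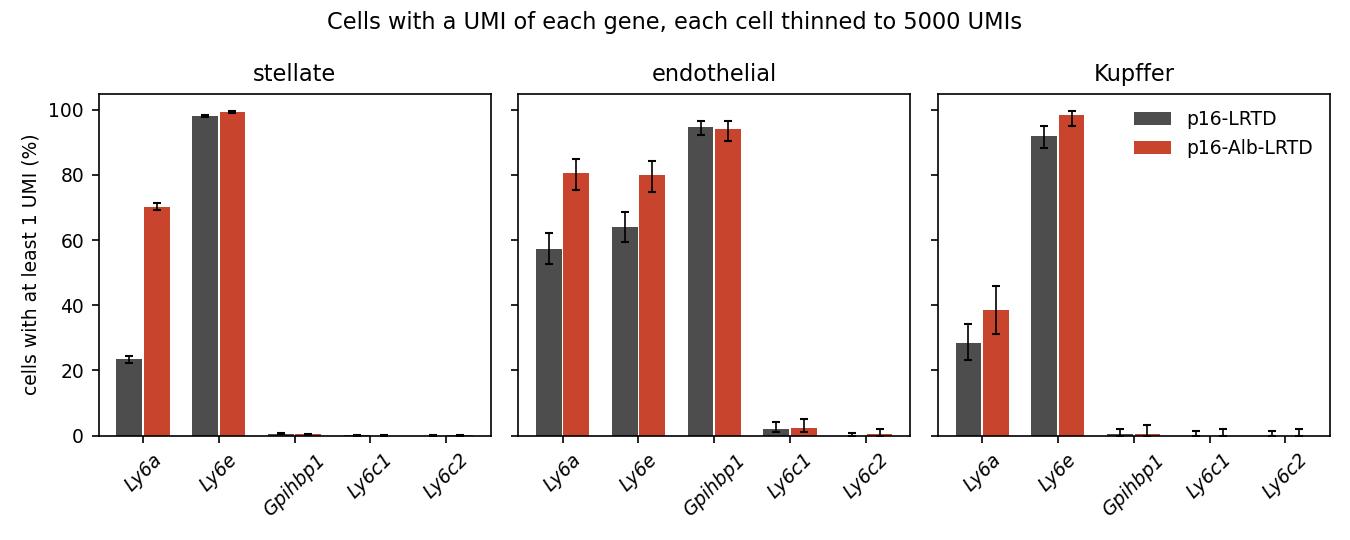
Percent of cells with at least 1 UMI of each member, with every cell thinned to 5000 UMIs and bars marking 95% Clopper-Pearson intervals. The Ly6a share in stellate cells is 23.4% in p16-LRTD and 70.3% in p16-Alb-LRTD, while Ly6e is found in nearly all stellate and Kupffer cells of both libraries.

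Free RNA can place UMIs in cells that do not make them, so the stellate level was set beside the endothelial level of the same library. Ly6a in stellate cells amounted to 0.222 (0.212 to 0.233) of its endothelial level in p16-LRTD and to 0.701 (0.673 to 0.731) in p16-Alb-LRTD. Over the 9 endothelial markers that did not enter the gate, the median of the same ratio was 0.00233 and 0.00299, and Gpihbp1 stood at 0.00108 and 0.000873. The Ly6a ratio lay above all 9 in p16-Alb-LRTD and above all but the largest in p16-LRTD, which was 0.316 for Eng, a receptor that stellate cells also make. In Kupffer cells Ly6a was 1.32 and 0.441 of its stellate level, against medians of 0.0131 and 0.0107 for the 5 stellate markers outside the gate. The part of free RNA in the Ly6a values was not tested.

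Stellate cells were ranked within each library by their UMIs of Col1a1, Col1a2 and Col3a1, the fibrillar collagen genes of scar tissue, and divided into terciles, which are ranges of a score and not cell types. Ly6a was 77.1, 73.7 and 73.3 CPM from the low to the high tercile in p16-LRTD and 374, 414 and 455 CPM in p16-Alb-LRTD. It was thus nearly level over collagen in p16-LRTD and higher with collagen in p16-Alb-LRTD, and the log2 ratios were 2.28 (2.22 to 2.34), 2.49 (2.44 to 2.54) and 2.63 (2.59 to 2.68). The terciles of the 2 libraries do not cover the same range, since the median collagen UMIs per 10000 in the high tercile were 133.5 and 40.8. The 175 and 27 stellate cells with at least 1 UMI of Mki67 and Top2a per 10000, genes of dividing cells, had 22.4 CPM (18.3 to 27.1) and 283 CPM (243 to 328) of Ly6a, below the other stellate cells of their library at 76.3 and 415 CPM.

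**Figure D3:**
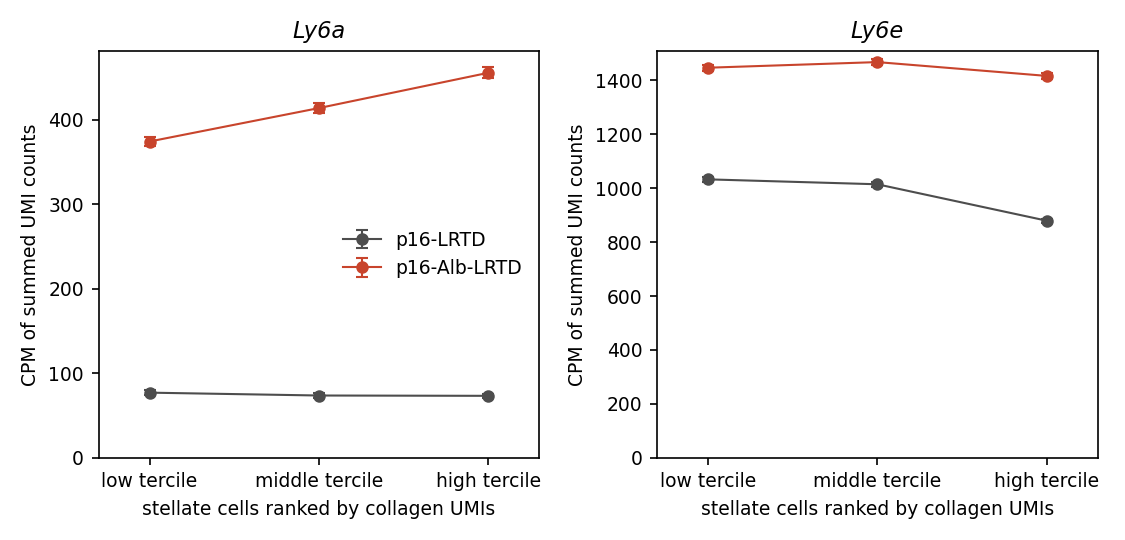
CPM of Ly6a (left) and Ly6e (right) in stellate cells ranked by collagen UMIs within each library and divided into terciles, with 95% Poisson intervals and axes from 0. The p16-Alb-LRTD line lies above the p16-LRTD line in every tercile, for Ly6a from 374 to 455 CPM against 73.3 to 77.1 CPM.

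Ly6e was the most abundant member in stellate and Kupffer cells, and its differences were smaller than 2-fold. In stellate cells it was 967 CPM (962 to 972) in p16-LRTD against 1444 CPM (1437 to 1450) in p16-Alb-LRTD, 1.49-fold (log2 ratio 0.58, 0.57 to 0.59). In Kupffer cells it was 934 CPM (909 to 958) and 1286 CPM (1253 to 1319), and in endothelial cells 252 CPM (240 to 265) and 344 CPM (326 to 363), with log2 ratios of 0.46 and 0.45. All of these ratios were above 0 with intervals that leave out 0, where the median of all genes was -0.05 in stellate, -0.10 in endothelial and -0.06 in Kupffer cells. At 5000 UMIs per cell, 98.2% and 99.3% of stellate cells held a Ly6e UMI, so here a share says little and the level carries the difference. Ly6e was lowest in the high collagen tercile of p16-LRTD, at 880 CPM against 1033 in the low tercile, and ran from 1417 to 1468 CPM over the terciles of p16-Alb-LRTD.

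Gpihbp1 was an endothelial gene in both libraries and was lower in p16-Alb-LRTD. Its endothelial level was 1094 CPM (1068 to 1120, 6732 UMIs) in p16-LRTD against 842 CPM (814 to 871, 3356 UMIs) in p16-Alb-LRTD, with a log2 ratio of -0.38 (-0.44 to -0.32), opposite in sign to those of Ly6a and Ly6e in the same cells. Nearly all endothelial cells kept a Gpihbp1 UMI at 5000 UMIs per cell, 94.7% (92.1 to 96.7) and 94.0% (90.6 to 96.5). Stellate cells had 1.18 and 0.735 CPM, and 24 of the 169 UMIs of p16-LRTD came from 1 cell. Kupffer cells had 5 UMIs in each library.

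The endothelial cells of the libraries also differed in the markers of lobular position. All 8 markers of endothelium near the central vein were higher in p16-Alb-LRTD, 6 of them at least 2-fold, with a median log2 ratio of 1.96 and a summed level of 548 CPM and 1586 CPM. Among them were Wnt2, a growth factor for hepatocytes, at 97.0 and 304.5 CPM and Selp, an adhesion receptor, at 2.6 and 40.7 CPM. Of the 8 portal-side markers, 6 were lower and 2 higher (median log2 ratio -0.37), yet their summed level was 2527 CPM and 3218 CPM, since the most abundant, Adam23, was 824 and 1886 CPM. The 5 markers of continuous or capillary endothelium at 5 CPM had a median of -0.25. Endothelial cells were therefore ranked within each library by the 8 markers of endothelium near the central vein. Gpihbp1 was 1221, 1273 and 822 CPM from the low to the high tercile of p16-LRTD and 1040, 867 and 648 CPM in p16-Alb-LRTD, lowest in the high tercile of both. Ly6a was 318, 289 and 393 CPM and 612, 571 and 591 CPM, above p16-LRTD in each tercile. The terciles again cover different ranges (medians of 8.12 and 26.6 marker UMIs per 10000 in the high tercile). Whether this shift has a part in the Gpihbp1 or the Ly6a ratio was not tested.

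**Figure D4:**
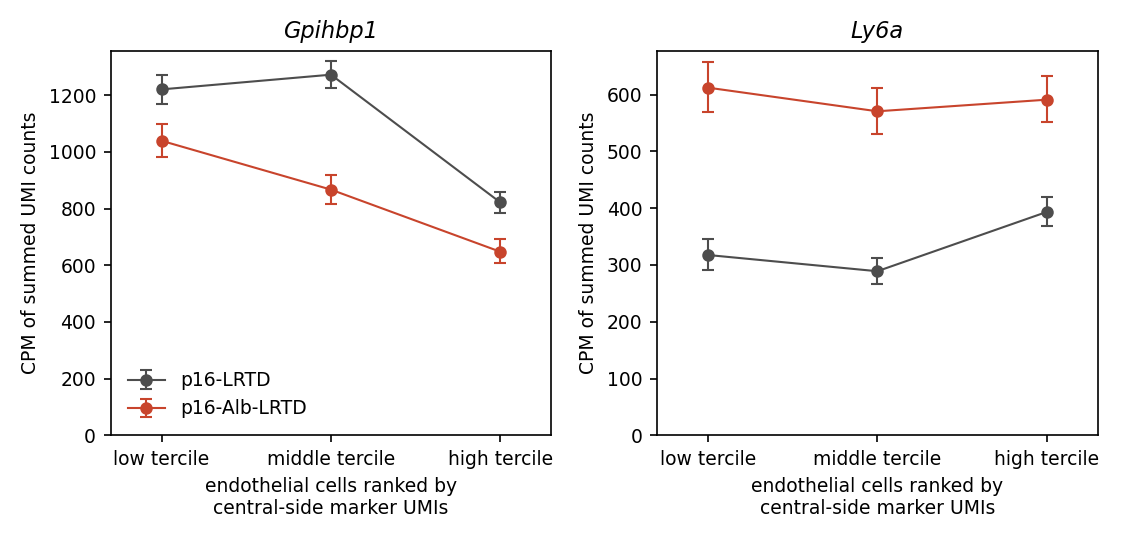
CPM of Gpihbp1 (left) and Ly6a (right) in endothelial cells ranked by UMIs of 8 central-side markers within each library and divided into terciles, with 95% Poisson intervals and axes from 0. Gpihbp1 is lowest in the high tercile of both libraries, at 822 and 648 CPM, and Ly6a is higher in p16-Alb-LRTD in all terciles.

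The partners of Gpihbp1 in lipolysis were read from a list of 14 genes. Lpl, the lipase that Gpihbp1 carries, was highest in Kupffer cells, at 2132 CPM in p16-LRTD against 1552 CPM in p16-Alb-LRTD, with 227 and 200 CPM in stellate cells and 26.7 and 7.53 CPM in endothelial cells. Of the 8 list genes with at least 5 CPM in endothelial cells, 1 was at least 2-fold higher in p16-Alb-LRTD (Apoc3, an apolipoprotein of hepatocytes, at 3.25 and 7.53 CPM) and 2 at least 2-fold lower (Lpl, and Pdgfb at 84.5 and 22.8 CPM), with a median log2 ratio of -0.07. The endothelial Lpl level was 1.25% and 0.485% of the Kupffer level, where the 5 Kupffer markers outside the gate had medians of 0.470% and 0.380% (0.167 to 4.61% and 0.169 to 0.605%, the 4.61% being Marco). The part of free Kupffer RNA in the endothelial Lpl values was not tested. Cd36 and Fabp4, which take up and bind fatty acids, had 1079 and 1114 CPM in endothelial cells of p16-LRTD and 956 and 949 CPM in p16-Alb-LRTD. Of the 8 list genes there, 4 were lower in p16-Alb-LRTD, as Gpihbp1 was, and 4 were higher, so the list had no common direction. In stellate cells Angptl4, an inhibitor of the lipase, was 23.0 CPM and 75.2 CPM, a log2 ratio of 1.71 (1.65 to 1.77), the only 1 of the 6 list genes at 5 CPM there that was past 2-fold. In Kupffer cells 3 of 8 were at least 2-fold lower and 0 higher: Angptl4, Fabp4 and Fabp5, the last at 537 CPM and 137 CPM. Fabp4 there was 8.52% and 3.51% of its endothelial level, where the 9 endothelial markers outside the gate had medians of 1.60% and 0.677% (0.0883 to 36.9% and 0.0841 to 57.7%, both upper ends being Cdh5).

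Ly6c1 was rare in all 3 cell types. Endothelial cells held 31 UMIs in 17 cells of p16-LRTD and 27 UMIs in 11 cells of p16-Alb-LRTD, or 5.04 CPM (3.42 to 7.15) and 6.78 CPM (4.47 to 9.86). The log2 ratio of 0.43 had an interval from -0.37 to 1.22, so a difference was not detectable at this depth. Stellate cells held 9 and 3 UMIs and Kupffer cells 1 and 1. In the 79 and 28 barcodes outside the gates with fibroblast or mesothelial markers there were 15 and 15 UMIs, or 7.70 CPM (4.31 to 12.7) and 17.8 CPM (9.94 to 29.3). Of these, 5 and 9 UMIs lay in 1 barcode of each library, and without them the levels were 5.26 CPM (2.52 to 9.67) and 7.34 CPM (2.69 to 15.98). Lymphocyte-gated barcodes held 2 and 3 Ly6c1 UMIs, or 18.1 CPM (2.20 to 65.5) and 12.5 CPM (2.58 to 36.5), intervals that overlap those of endothelial cells. All barcodes that passed none of the 3 gates together held 35 and 19 Ly6c1 UMIs, of which 18 and 9 lay in 1 barcode. Those that passed more than 1 gate held 0 and 15, of which 11 lay in 1 barcode.

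Ly6c2 was found mainly in a few barcodes with lymphocyte markers, many of which also held monocyte markers. The 15 and 22 barcodes outside the gates with lymphocyte markers held 92 and 229 Ly6c2 UMIs, of 96 and 230 in all barcodes that passed no gate. Their level was 834 CPM (673 to 1023) and 954 CPM (834 to 1086), with overlapping intervals, and 8 and 13 cells held the gene. Of these barcodes 8 and 10 also passed the monocyte gate, and they held 75 of the 92 and 183 of the 229 UMIs, at 1183 CPM (930 to 1482) and 1509 CPM (1299 to 1745). The 7 and 12 with lymphocyte markers alone had 363 CPM (211 to 581) and 387 CPM (283 to 516), and the 101 and 46 with monocyte markers alone held 4 and 1 UMIs. In the barcodes that passed both gates, Plac8 gave 73.8% and 89.2% of the monocyte marker UMIs and Ighm, the heavy chain of immunoglobulin M, 32.8% and 64.0% of the lymphocyte marker UMIs. The cell type behind most of the Ly6c2 UMIs therefore cannot be told from these gates. Stellate cells held 0 UMIs in p16-LRTD, where 3 UMIs would be 0.0210 CPM, and 32 in p16-Alb-LRTD, of which 24 came from 1 cell that also held 8 UMIs of lymphocyte markers. The 29 UMIs of endothelial cells of p16-Alb-LRTD all came from 1 cell, with 7 such UMIs, and endothelial cells of p16-LRTD held 0. The Ly6c2 counts in these cell types thus rest on single barcodes and give no comparison.

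Across the family, 2 members reached 5 CPM in stellate cells, 4 in endothelial cells and 2 in Kupffer cells. Only Ly6a in stellate cells was past 2-fold in these sets, as 1 member higher and 0 lower. Among all genes at 5 CPM the share past 2-fold was 0.923% higher and 0.943% lower in stellate cells, 2.0% and 3.65% in endothelial cells, and 1.70% and 1.87% in Kupffer cells. Since the members were picked with this contrast in view, nothing is read from their count. Of 35 further genes with the same protein fold that were in the files, 3 reached 5 CPM in stellate cells (Cd59a, Lynx1 and Lypd6), 5 in endothelial cells (Cd59a, Ly6d, Ly6g6d, Lypd6 and Plaur) and 1 in Kupffer cells (Plaur). Of those that reached 5 CPM, Ly6d in endothelial cells, at 4.88 CPM and 11.8 CPM, was the only one past 2-fold. Cd59a, which protects cells from complement, was 250 and 248 CPM in endothelial cells, and Plaur, the urokinase receptor, 44.4 and 53.7 CPM in Kupffer cells. Of the 15 further genes measured between the outermost members or within 100 kb of one, 0 reached 5 CPM in stellate cells, 2 in endothelial cells (Zfp41 and Top1mt) and 2 in Kupffer cells (Gm39556 and Top1mt). Of the genes that reached 5 CPM, the noncoding gene Gm39556 in Kupffer cells, with 39 and 59 UMIs, was the only one past 2-fold (log2 ratio 1.01, 0.40 to 1.63). Below 5 CPM in stellate cells, Ly6i had 21 and 39 UMIs (log2 ratio 1.08, 0.28 to 1.92) and 2010109I03Rik 29 and 66 (1.38, 0.73 to 2.06). There the noncoding gene Gm28068 was also higher (0.63, 0.45 to 0.81) and Top1mt lower (-0.40, -0.61 to -0.20).

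Since Ly6a and Ly6e are known interferon targets, they were set beside 39 other interferon-induced genes. In stellate cells 38 reached 5 CPM, of which 36 were higher in p16-Alb-LRTD, 14 at least 2-fold, and 0 were at least 2-fold lower, with a median log2 ratio of 0.84. The largest were Rsad2 (1.75), an antiviral enzyme, Ifi44 (1.5), the chemokine Cxcl10 (1.49) and Irf7 (1.40), a transcription factor of the interferon response, and the smallest were Ifi27 (-0.84) and Psmb9 (-0.14). Ly6a at 2.48 lay above the whole list in stellate cells, and Ly6e at 0.58 below its median. In endothelial cells 10 of 37 genes were at least 2-fold higher (median 0.72), and in Kupffer cells 24 of 39 (median 1.11), with 1 lower, Ifi27. In these types Ly6a, at 0.82 and 0.89, lay within the range of the list.

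**Figure D5:**
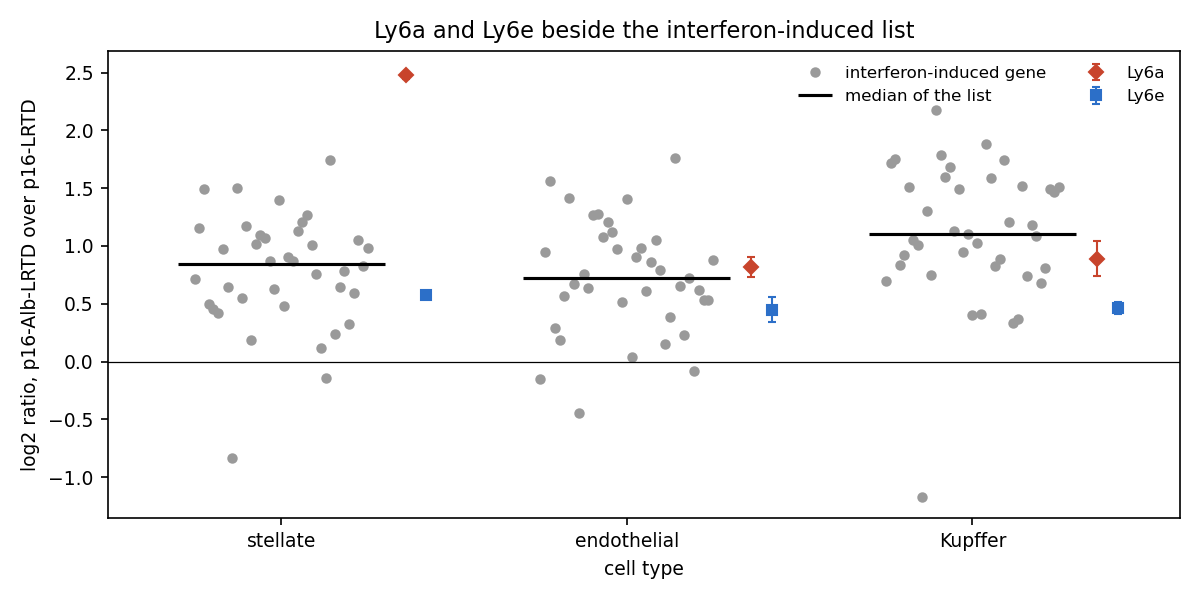
Log2 ratio of p16-Alb-LRTD over p16-LRTD for the interferon-induced genes with at least 5 CPM (grey points, spread sideways), their median (line), Ly6a and Ly6e (with 95% counting intervals) in each cell type. Ly6a lies at 2.48 in stellate cells, above every gene of the list, and at 0.82 and 0.89 in endothelial and Kupffer cells.

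Within a library, cells with a Ly6a UMI also had more interferon-induced RNA. At 5000 UMIs per cell, the summed list was 2967 CPM (2948 to 2987) in stellate cells of p16-LRTD without a Ly6a UMI and 3386 CPM (3348 to 3424) in those with one, and 4661 CPM (4618 to 4704) and 5214 CPM (5184 to 5243) in p16-Alb-LRTD. The cells of p16-Alb-LRTD without a Ly6a UMI thus had more interferon-induced RNA than the cells of p16-LRTD with one. The same order within a library was found in endothelial cells (2531 and 3131 CPM, then 3455 and 4483 CPM) and in Kupffer cells (2415 and 3638 CPM, then 4679 and 6344 CPM). Cells are not replicates, and these are values of 2 libraries.

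The genes with the pattern most like each member were ranked by the root mean square difference of their centred log2(CPM + 1) levels over the 6 sums of cell type and library, among 8912 genes with at least 20 CPM in one of them. For Ly6a these were Klhl2 (0.42), Herpud1 (0.42) and Ifi44 (0.47), for Ly6e Fam49a (0.17), Gm26532 (0.21) and Btg2 (0.24), and for Gpihbp1 the endothelial genes Flt4 (0.23), Aqp1 (0.32) and Cyyr1 (0.32). The likeness of the last 2 lies in the cell type, since in endothelial cells Aqp1, at 1765 and 2184 CPM, and Cyyr1, at 635 and 981 CPM, were higher in p16-Alb-LRTD, opposite to Gpihbp1. The nearest genes to Ly6a had a smaller stellate difference than Ly6a itself, from 58.8 to 170.5 CPM for Herpud1 and from 37.2 to 87.1 CPM for Klhl2. For Ly6c1 (Slc25a37, Rell1 and Ttc7b) and Ly6c2 (Tle1, Ypel2 and Neil2) the likeness rests on few UMIs.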

How the data were processed

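Raw counts of UMIs for every gene and barcode were deposited by the authors for 2 libraries made with the 10x Genomics 3′ v3.1 kit, counted with Cell Ranger 7.0.1 and mm10. From these counts, barcodes with over 5% mitochondrial UMIs, under 2000 or over 7000 genes, or over 50000 UMIs were left out, as in the study. No doublet caller was run. Barcodes passing more than 1 of the 3 gates (245 and 221) were left out instead. Counts were summed per library and cell type and given as CPM with exact Poisson intervals, ratios with exact conditional intervals and shares with Clopper-Pearson intervals (SciPy 1.17.1), all at 95%. The intervals were checked only on data simulated from the same counting models. That check does not cover UMIs that are spread unevenly over cells. Each genotype had 1 library, so nothing was tested and p-values are absent. TMM factors came from edgeR 4.0.16. The members and gene lists were chosen with earlier results of these data known. Besides the members, the text names genes of fixed family, neighbour, lipolysis and position lists, the 3 genes most like each member, and the 4 largest and 2 smallest ratios of the interferon list in stellate cells. The expression minimum was 5 CPM averaged over the libraries, and for the neighbouring genes 5 CPM in either library. Counts of 3 UMIs served as the floor where a gene had 0.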

Additional observations from a re-analysis of the deposited data

Results flagged for a closer look

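Some values belonged to barcodes outside the 3 cell types. They were flagged because the genes were counted there above the level of 3 UMIs, and 1 library per genotype gives no control for them. In lymphocyte-gated barcodes Ly6c2 reached 834 CPM in p16-LRTD against 954 CPM in p16-Alb-LRTD, and 75 of 92 and 183 of 229 UMIs lay in barcodes that also passed the monocyte gate. In fibroblast-gated barcodes Ly6c1 reached 7.70 CPM and 17.8 CPM, and 5.26 CPM and 7.34 CPM without the barcode that held the highest count of it in each library. Barcodes that passed more than 1 gate, most of them the stellate and the endothelial gate together (180 of 245 and 197 of 221), held Gpihbp1 at 294 CPM and 301 CPM and Ly6a at 133 CPM and 391 CPM. Their median depths were 24438 and 29404 UMIs.

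In the same endothelial cells Ly6a was higher and Gpihbp1 lower in p16-Alb-LRTD. No member had ratios of opposite sign in 2 cell types with both intervals apart from 0.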

How the results depend on the processing

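No paired analysis was possible because there is 1 library per genotype. Of 132 recomputed log2 ratios of the members, 102 stayed within the counting interval of the main value, and no ratio of a member that had at least 5 CPM in that cell type in the reported analysis changed sign. Ly6a in stellate cells ran from 2.41 to 2.52 and was the only member past 2-fold there in every alternative run. In cells with 10000 to 30000 UMIs 1 member, Ly6a, was past 2-fold in endothelial cells, and its ratios over all alternatives ran from 0.65 to 1.003. Ly6e ran from 0.55 to 0.62 in stellate cells, and Gpihbp1 from -0.57 to -0.28 in endothelial cells. In Kupffer cells Ly6a ran from 0.62 to 0.99 and Ly6e from 0.24 to 0.53, both lowest in cells with 10000 to 30000 UMIs. With barcodes kept in every gate they passed, the stellate ratio of Gpihbp1 was 0.24 (reported value -0.69), with levels of 12.7 and 14.97 CPM, and the barcodes that passed more than 1 gate held 1772 and 1912 of its UMIs. That of Ly6c1 was 1.18 (reported value -1.40), from few UMIs. In Kupffer cells, with 5 UMIs or fewer in each library, the ratio of Gpihbp1 changed from 0.41 to -0.39 and that of Ly6c1 from 0.41 to -0.65 without the barcode filter, and that of Gpihbp1 to -0.12 without upper limits and -0.75 in cells with 10000 to 30000 UMIs. Without the barcode with the most UMIs, Ly6c2 in stellate cells of p16-Alb-LRTD had 8 UMIs and the Gpihbp1 ratio was -0.47. The stellate share of the endothelial Ly6a level was 0.300 and 0.863 with overlapping gates. In p16-LRTD it was 0.242 without the barcode filter, 0.235 without upper limits, 0.248 in cells with 10000 to 30000 UMIs and 0.206 as a mean over cells. The number of members with a higher share of cells in p16-Alb-LRTD, intervals apart, was 2 in stellate cells and 1 without thinning, and 1 in Kupffer cells and 0 at 3000 UMIs. The share of all genes that meet this rule was not computed. The members were also picked with this contrast in view, so nothing is read from these counts. TMM and median-of-ratios scaling shifted all ratios by 0.04 to 0.10. Leaving out barcodes found in both libraries or single barcodes and the recomputed stellate share were chosen after seeing the data. The causes of these shifts were not tested. Depth limits Ly6c1 and Ly6c2, at most 32 UMIs in any of the 3 cell types.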

Other observations

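Outside the 3 cell types Ly6a was higher in p16-Alb-LRTD, with intervals apart, in barcodes with markers of monocytes and other macrophages and in barcodes that passed more than 1 gate, where the log2 ratio was 1.56 (1.44 to 1.67). In barcodes with fibroblast or mesothelial markers (79 and 28) it was 162 CPM (144 to 181) in p16-LRTD against 148 CPM (123 to 176) in p16-Alb-LRTD, with a log2 ratio of -0.13 (-0.44 to 0.18), and Ly6e was 351 and 349 CPM. In barcodes with markers of monocytes and other macrophages and no lymphocyte gate (101 and 46) Ly6a was 57.0 CPM (47.9 to 67.3) and 149 CPM (128 to 172), a log2 ratio of 1.38 (1.06 to 1.71), with 34.2% of the UMIs of p16-Alb-LRTD in 1 cell. In lymphocyte-gated barcodes it was 535 CPM (407 to 690) and 679 CPM (579 to 792), with overlapping intervals, but 55 of 59 and 146 of 163 UMIs lay in the barcodes that also passed the monocyte gate. In barcodes with lymphocyte markers alone there were 4 and 17 Ly6a UMIs, or 85.4 CPM (23.3 to 219) and 143 CPM (83.3 to 229). Hepatocyte-gated barcodes (6 and 4) held 0 Ly6a UMIs and had Ly6e at 421 and 352 CPM. These sets are small, and each is 1 library per genotype.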
